A study of Mus musculus with 18 samples.

Results

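The control libraries of 2 kinds of mouse embryonic stem (ES) cell were compared by ATAC-seq: 4 ethanol libraries of conditional knockout lines against 5 DMSO libraries of wild-type cells, 9 of the 18 libraries of the series. In ATAC-seq a transposase cuts accessible DNA and tags it for sequencing, and accessible sites show up as pile-ups of reads, called peaks. Regions were made by merging overlapping peaks of the 9 lists on chromosomes 1 to 19 (build mm9). Of 278123 regions, 272 held a peak in all 4 ethanol libraries and in no DMSO library, and 303 held a peak in all 5 DMSO libraries and in no ethanol library. The first are called ethanol-specific and the second DMSO-specific regions, for detection in these 9 lists alone.

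The ethanol set held 2 libraries of Brg1fl/fl; Actin-CreER cells and 2 of Baf53afl/-; Actin-CreER cells, given ethanol for 24 h and then kept in fresh medium for 48 h. In these lines both Brg1 alleles, or the 1 remaining Baf53a allele, are flanked by loxP sites, and a Cre recombinase under an actin promoter deletes them only once tamoxifen is added. The Baf53afl/- controls thus already lacked 1 allele of Baf53a. The DMSO set held 2 libraries of wild-type cells given DMSO for 24 h and 3 given DMSO for 1 h, the solvent of ICRF-193. The 1 h time is taken from the sample titles; the protocol text states 24 h throughout for wild-type cells. All cells grew on gelatin in serum and LIF, and viable cells were sorted before the assay. Replicates were passages of a line, so that the sets hold 2 lines and 1 line, and a p over libraries measures the spread between passages and libraries, not between lines. Line, solvent, transgene, time in culture and the peaks on chromosomes X and Y all change together between the sets and cannot be told apart. The labels used here name neither the strain nor the derivation of the lines.

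BAF is a chromatin remodelling complex that slides and evicts nucleosomes with the energy of ATP, and in ES cells it is needed for self-renewal and for keeping many enhancers open. Brg1 is its ATPase, and Baf53a is an actin-related subunit. Conditional alleles serve to compare the same line before and after deletion, because separately kept ES cell lines can differ from each other without any deletion. The comparison of the controls shows how far the control sets differ without tamoxifen or ICRF-193.

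Over whole lists no difference between the sets passed its test. The deposited lists held 107473 and 85007 peaks in the Brg1fl/fl ethanol libraries and 110503 and 83918 in the Baf53afl/- ones. They held 98166 and 127030 peaks with DMSO for 24 h, and 121510, 58532 and 129880 with DMSO for 1 h, replicate 2 being the shortest list of the 9. The ranges overlapped, with the lowest and the highest list both in the DMSO set. On chromosomes 1 to 19 the log2 number of peaks was 16.52 ± 0.21 in ethanol (SD, n = 4) and 16.59 ± 0.48 in DMSO (SD, n = 5), a difference of -0.073 (two-sided exact permutation p = 0.794). The median peak width was 211 ± 9.84 bp against 209 ± 11.4 bp, with an exact permutation p of 0.778. Peaks of 1 kb or more made up 1.23% ± 0.506 against 1.12% ± 0.605 (exact p = 0.889), and peaks covered 27.0 ± 4.82 Mb against 29.1 ± 8.98 Mb (exact p = 0.698). After adjustment over these 4 measures the p was 0.889 for each. The lists give no read counts, so read depth is unknown and list length is the nearest guide to it.

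Chromosomes X and Y, which are outside the regions described here, set the lists apart. Peaks on X made up 1.93 to 2.10% of each ethanol list and 3.74 to 4.13% of each DMSO list, with no overlap. The ethanol lists held 41 to 50 peaks on Y and each DMSO list 0. The treated libraries of the same cells divided likewise, with 1.79 to 1.95% of peaks on X and 38 to 52 on Y after tamoxifen, against 3.87 to 4.10% and 0 with ICRF-193. The part of this difference in the results on the other chromosomes was not tested.

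Libraries of 1 set overlapped each other somewhat more at the median than they overlapped the other set, with ranges that overlapped. The Jaccard index, the share of all base pairs under peaks of either list that lie under peaks of both, had a median of 0.428 over the 6 pairs of ethanol libraries (0.388 to 0.445). It was 0.413 over the 10 pairs of DMSO libraries (0.299 to 0.430) and 0.393 over the 20 pairs across sets (0.312 to 0.437), so that the ranges overlapped. When every list was cut down to the 56253 peaks with the highest scores, the medians were 0.503, 0.506 and 0.481. At this length the pairs of DMSO 1 h replicate 2 with other DMSO libraries were at 0.389 to 0.409. The pairs of the other DMSO libraries were at 0.505 to 0.525, the ethanol pairs at 0.463 to 0.522, and the pairs across sets at 0.383 to 0.512. These differences were not tested.

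Most regions were found in few lists, and all-or-none regions were rare. Of the 278123 regions, 147096 (52.9%) held a peak in 1 library alone and 29816 (10.7%) in all 9. The ethanol-specific regions were 0.0978% of all regions and the DMSO-specific ones 0.109%. This is the share that the rule itself picks, and no test was run on it. Just outside the rule lay 1090 regions with a peak in 3 of 4 ethanol and no DMSO libraries, and 550 with a peak in all 4 ethanol libraries and 1 DMSO library. On the other side, 1402 regions had a peak in 4 of 5 DMSO and no ethanol libraries, and 730 in all 5 DMSO libraries and 1 ethanol library. Of the 1402, 990 (70.6%) lacked a peak in the short list of DMSO 1 h replicate 2, and without that library 1291 regions were DMSO-specific. The DMSO-specific count was also over 1.5 times higher without Brg1fl/fl ethanol replicate 1 (547), Baf53afl/- ethanol replicate 1 (580) or DMSO 24 h replicate 1 (468). The ethanol-specific count rose to 480 and 673 without Brg1fl/fl replicates 1 and 2, 667 without Baf53afl/- replicate 2, 426 without DMSO 24 h replicate 2, and 428 and 443 without DMSO 1 h replicates 1 and 3. A rule that asks for 1 library fewer is looser, and every such count was higher than with all 9 libraries.

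**Figure D1:**
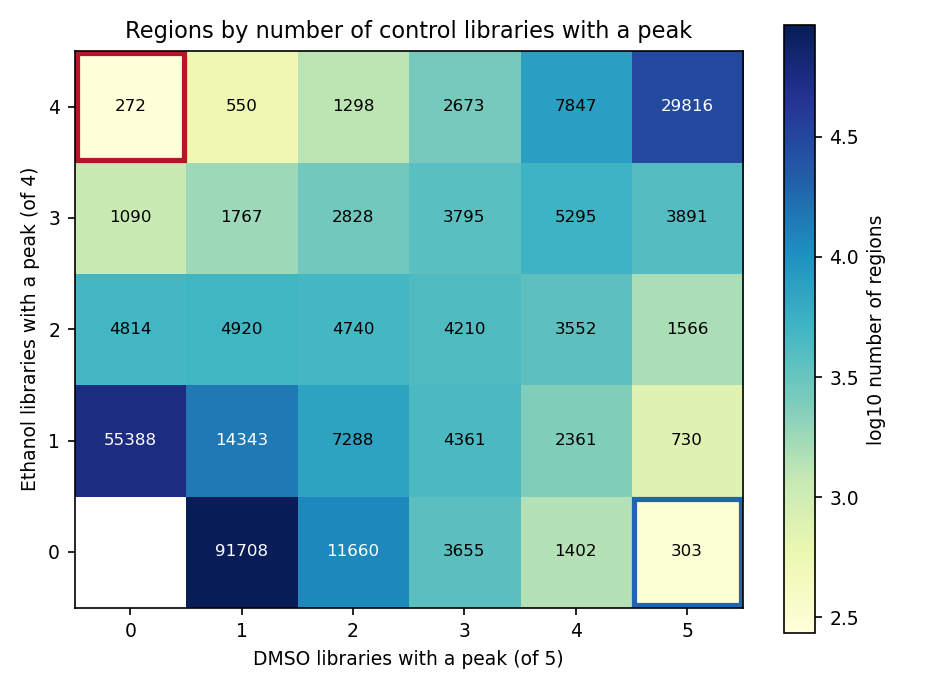
Number of regions by the number of DMSO libraries (x axis, of 5) and of ethanol libraries (y axis, of 4) with a peak; colour gives the log10 number. The outlined corners are the 272 ethanol-specific (red) and 303 DMSO-specific (blue) regions, against 29816 regions in all 9 libraries.

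Name-and-year prefixes of the deposited names divide the libraries into replicate 1 of each group and replicates 2 and 3. Within the first (2 ethanol against 2 DMSO libraries), 6483 regions were ethanol-specific and 6027 DMSO-specific. Within the second (2 against 3) the counts were 1789 and 2326. These were 3.27% and 3.04% of 198347 regions under the first prefix, and 0.866% and 1.13% of 206676 under the second. The numbers were larger because fewer libraries were asked for. With so few libraries per set the rule is loose, so finding both classes under each prefix is no check of them.

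In median strength the set-specific regions lay between the regions of all 9 libraries and the mixed regions, those of 2 ethanol and 2 or 3 DMSO libraries. Regions in most but not all libraries were not measured as a class. Strength is given as a percentile, the rank of a peak's score among all peaks of its own list. The mean percentile over the lists that held the region had a median of 46.1 (quartiles 33.9 and 58.7) for ethanol-specific and 48.5 (39.5 and 60.8) for DMSO-specific regions. Regions in all 9 libraries had a median of 79.6, regions of 2 ethanol and 2 DMSO libraries 35.6, regions of 2 ethanol and 3 DMSO libraries 40.3, and all regions 29.7. Of the ethanol-specific regions 18 reached a mean percentile of 80 and 5 reached 90, and of the DMSO-specific regions 15 and 6 did. A mean percentile of 80 was reached by 5 of the 4740 and 7 of the 4210 mixed regions. It was reached by 15494 of all 278123 regions, 14639 of which were in all 9 libraries. Mixed regions by definition lack a peak in some libraries of both sets, and set-specific regions hold one in every library of their set. The classes thus differ by the rule, their strengths are not a like comparison, and none was tested. Within the classes the percentiles were lower in the shorter lists. Ethanol-specific regions had median percentiles of 53.0 and 37.1 in Brg1fl/fl replicates 1 and 2, and of 57.2 and 40.8 in Baf53afl/- replicates 1 and 2. DMSO-specific regions had 51.6 and 58.1 at 24 h, and 58.5, 35.2 and 59.3 in the 1 h replicates 1 to 3.

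**Figure D2:**
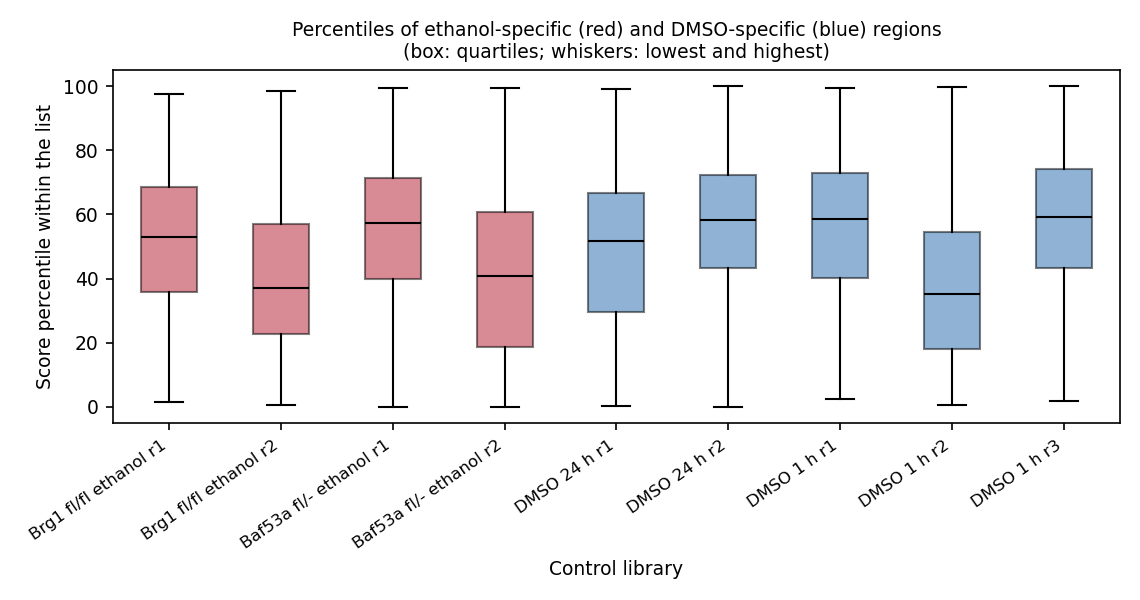
Score percentile (y axis) of the 272 ethanol-specific regions in each ethanol library (red) and of the 303 DMSO-specific regions in each DMSO library (blue). Boxes give quartiles and whiskers the lowest and highest value; the lowest medians were 37.1 and 35.2, in Brg1fl/fl ethanol replicate 2 and DMSO 1 h replicate 2.

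The first 3 ethanol-specific regions by mean percentile stood above the 90th percentile of every ethanol list, and the lowest single value among the first 10 was 71.9. Region 1, chr17:36621609-36621912, was at percentiles 97.4 and 98.5 in the Brg1fl/fl and 96.1 and 96.1 in the Baf53afl/- libraries. Region 2, chr9:13422618-13422868, was at 97.6 and 95.4, and at 96.9 and 97.9. Both were short, 304 and 251 bp, and their 4 values lay within a few percentiles of each other. Region 3, chr4:146315596-146316830, was 1235 bp wide, the widest of the class, at 93.3 and 93.4 in the Brg1fl/fl and 99.4 and 97.6 in the Baf53afl/- libraries. Region 4, chr7:89919544-89920550, was likewise higher in the Baf53afl/- libraries (97.6 and 99.3) than in the Brg1fl/fl libraries (90.2 and 87.0). Regions 5, 6 and 8 all lay on chromosome 1, at chr1:147371453-147371780, chr1:162011143-162011614 and chr1:155613450-155613912, with mean percentiles of 91.8 ± 5.56, 88.6 ± 6.31 and 87.2 ± 7.72 (SD, n = 4 each). Region 7 was chr18:7320263-7320527 (87.4 ± 5.89), and regions 9 and 10 were chr12:6377658-6377928 (84.6 ± 8.68) and chr12:21834740-21835027 (84.5 ± 6.74), each with n = 4.

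The lowest single value among the first 10 DMSO-specific regions was 71.2, and the highest regions were near the top of all 5 lists. Region 1, chr4:88403246-88403797, was at percentiles 99.2 and 99.8 with DMSO for 24 h, and at 99.3, 98.4 and 99.9 with DMSO for 1 h. Region 2, chr4:124031788-124032392, was at 96.8 and 99.9, and at 98.6, 99.2 and 99.8. These 2 regions were in the top 4% of each of the 5 lists, that of DMSO 1 h replicate 2 included. Region 3, chr12:52079686-52079960, was at 93.1 and 98.9, and at 89.6, 99.7 and 99.3, lowest in the 2 replicate 1 libraries. Regions 4 to 6 were chr17:32511786-32512255 (95.5 ± 1.67), chr11:46363198-46363698 (93.9 ± 2.17) and chr18:62894206-62894703 (91.9 ± 3.27; SD, n = 5 each). Regions 7 to 10 had means from 89.6 to 85.7, at chr12:77326383-77326587, chr18:22961062-22961546, chr14:87791183-87791419 and chr16:25519854-25520019.

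Beside the last of these lay the strongest region that missed the rule by 1 ethanol library. At chr16:25522824-25523117 the 5 DMSO libraries were at percentiles from 99.66 to 99.95, and Brg1fl/fl ethanol replicate 2 alone among the ethanol libraries held a peak, at 84.2. Its counterpart on the ethanol side, chr16:67652778-67653416, was at 98.9, 99.1, 97.7 and 93.8 in the ethanol libraries and at 49.0 in DMSO 1 h replicate 3. The nearest genes of these regions are not named, since a gene annotation of build mm9 was not used here.

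**Figure D3:**
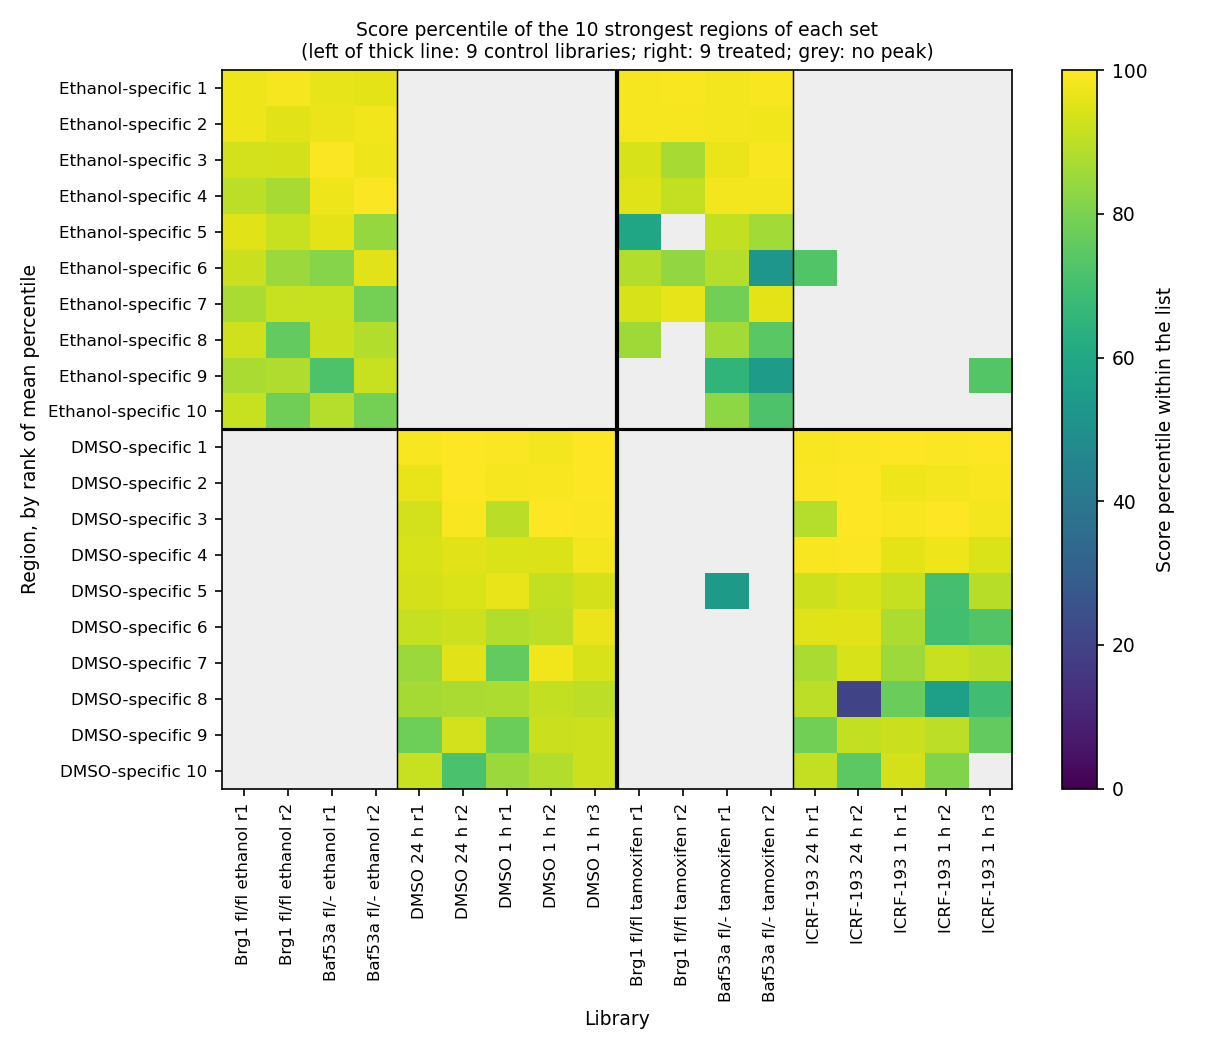
Score percentile (colour) of the 10 strongest ethanol-specific and the 10 strongest DMSO-specific regions (rows) in the 9 control libraries, which chose them (left of the thick line), and in the 9 treated libraries, which did not (right); grey means no peak. In the treated libraries, ethanol-specific regions 1 to 4 held a peak in all 4 tamoxifen and no ICRF-193 libraries, and DMSO-specific regions 1 to 4 in all 5 ICRF-193 and no tamoxifen libraries.

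The same regions divided the treated libraries, which the rule did not use. These were 4 libraries of the knockout lines given 0.8 µM tamoxifen for 24 h, which deletes Brg1 or Baf53a, and 5 of wild-type cells given 1 µM ICRF-193, an inhibitor of topoisomerase II. Of the 272 ethanol-specific regions, 43.4% and 19.9% held a peak in Brg1fl/fl tamoxifen replicates 1 and 2, and 62.9% and 47.1% in the Baf53afl/- ones. With ICRF-193 the shares were 11.03% and 10.3% at 24 h, and 18.4%, 4.04% and 15.1% at 1 h. Each tamoxifen library was above each ICRF-193 library. The means were 43.3% ± 17.8 (SD, n = 4) and 11.8% ± 5.41 (SD, n = 5), a difference of 31.5 percentage points (two-sided exact permutation p = 0.0159, adjusted p = 0.0159 over 2 tests). That p is the smallest that 4 against 5 libraries allow. The call was lost when the regions were found with equal numbers of peaks per control list (354 regions, difference 29.1 points, exact permutation p = 0.0635). Brg1fl/fl tamoxifen replicate 2, the shortest of the 9 treated lists, then held 25.4%, below 3 ICRF-193 libraries at 28.2%, 35.9% and 36.7%, and the other 3 tamoxifen libraries stayed above each ICRF-193 library.

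DMSO-specific regions went the other way. Of the 303, 73.3% and 58.4% held a peak with ICRF-193 for 24 h, and 74.6%, 31.7% and 64.7% with ICRF-193 for 1 h. The tamoxifen libraries held 18.2% and 6.60% in the Brg1fl/fl line, and 20.5% and 17.5% in the Baf53afl/- line. Again the groups did not overlap, although ICRF-193 1 h replicate 2 (31.7%), a short list of 50611 peaks, came near the highest tamoxifen library. The means were 60.5% ± 17.4 (SD, n = 5) with ICRF-193 and 15.7% ± 6.18 (SD, n = 4) with tamoxifen, a difference of -44.9 points for tamoxifen minus ICRF-193 (exact permutation p = 0.0159, adjusted p = 0.0159). Within the first prefix the differences were 38.4 points for ethanol-specific and -54.6 for DMSO-specific regions, and within the second 23.7 and -39.5, with no overlap of libraries in either. The treatments differ between the lines, so line and treatment cannot be told apart here either.

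Among regions seen in as many control libraries, but in both sets, the treated groups overlapped. Of the 4740 regions with a peak in 2 ethanol and 2 DMSO libraries, 10.3 to 35.2% held a peak in the tamoxifen libraries and 8.52 to 36.4% in the ICRF-193 libraries. Less this share in the same library, ethanol-specific regions were 9.54 to 27.7 points higher in each tamoxifen library and 4.48 to 20.2 points lower in each ICRF-193 library (difference 30.2 points, exact permutation p = 0.0159). DMSO-specific regions were set against the 4210 regions with a peak in 2 ethanol and 3 DMSO libraries. They were 6.53 to 20.7 points lower in each tamoxifen library and 18.4 to 29.2 points higher in each ICRF-193 library (difference -39.8, exact permutation p = 0.0159). This subtraction was chosen after the data were examined.

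**Figure D4:**
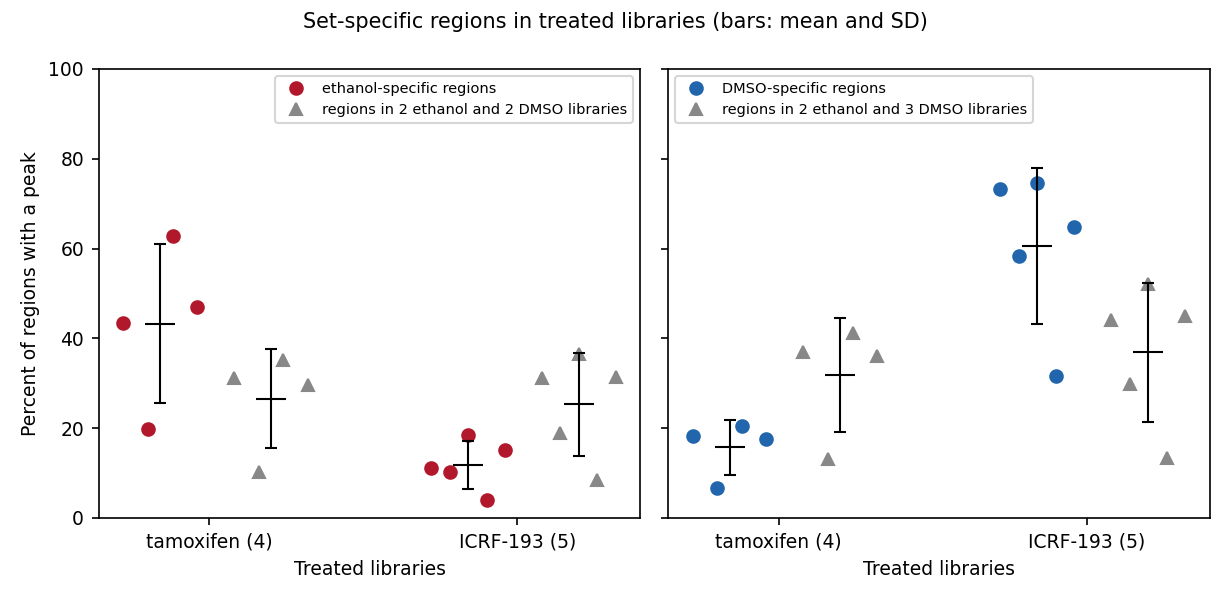
Percent of regions with a peak (y axis) in each of the 4 tamoxifen and 5 ICRF-193 libraries for ethanol-specific regions (left, red) and DMSO-specific regions (right, blue), beside regions detected in both sets (grey triangles); bars give the mean and SD. Red points are higher with tamoxifen (mean 43.3% against 11.8%) and blue points higher with ICRF-193 (60.5% against 15.7%).

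Some set-specific regions were found in the other cells once treated. A peak in 1 or more ICRF-193 libraries was found in 36.4% of ethanol-specific regions, against 71.0% of the regions of 2 ethanol and 2 DMSO libraries. A peak in 1 or more tamoxifen libraries was found in 41.6% of DMSO-specific regions, against 71.1% of the regions of 2 ethanol and 3 DMSO libraries. The mixed regions were chosen for peaks in control libraries of those cells, and the set-specific regions for none. The 2 kinds of region thus differed in this respect by the rule, and these shares were not tested. Of the 272 ethanol-specific regions, 134 held a peak in 1 or more tamoxifen libraries and no ICRF-193 library, 84 in libraries of both kinds, 15 in ICRF-193 libraries alone and 39 in none. Of the 303 DMSO-specific regions, 169 held a peak in ICRF-193 libraries alone, 120 in both kinds, 6 in tamoxifen libraries alone and 8 in none. DMSO-specific region 154, chr13:119242871-119243146, held a peak in all 5 DMSO libraries (percentiles 30.3 to 74.1) and in all 4 tamoxifen libraries, but in no ICRF-193 and no ethanol library. Its mean percentile of 48.3 was close to the median of its class. It was named after its values were seen.

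Detection in the treated libraries of the same cells went with strength in the controls. Ethanol-specific regions with no peak in the 4 tamoxifen libraries (54 regions) had a median percentile of 38.4, and those with a peak in all 4 (34 regions) one of 66.8. DMSO-specific regions rose from 35.9 with no peak in the 5 ICRF-193 libraries (14 regions) to 65.0 with a peak in all 5 (50 regions). Of the 18 ethanol-specific regions at a mean percentile of 80 or more, all held a peak in some tamoxifen library, 8 in all 4, and 15 had none in any ICRF-193 library. Of the 15 such DMSO-specific regions, 12 held a peak in all 5 ICRF-193 libraries and 13 in no tamoxifen library.

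Over all 18 libraries 58 regions divided the knockout-line from the wild-type libraries without exception. Line, transgene and treatment divide these libraries in the same way. A peak in all 8 knockout-line and no wild-type library was found in 25 ethanol-specific regions, on 16 chromosomes, with a median width of 373 bp and a median percentile of 68.5. Of these, 5 lay on chromosome 1, and 5 were among the 10 strongest ethanol-specific regions. A peak in all 10 wild-type and no knockout-line library was found in 33 DMSO-specific regions, on 14 chromosomes, with a median width of 431 bp and a median percentile of 65.1. Of these, 6 lay on chromosome 1 and 5 on chromosome 4, and 8 were among the 10 strongest DMSO-specific regions. The other pair of top DMSO-specific regions were region 5, at percentile 54.6 in Baf53afl/- tamoxifen replicate 1, and region 10, which lacked a peak in ICRF-193 1 h replicate 3. All tamoxifen and no ICRF-193 libraries held a peak in 25 of 272 ethanol-specific and 10 of 4740 mixed regions. All ICRF-193 and no tamoxifen libraries held a peak in 33 of 303 DMSO-specific and 18 of 4210 mixed regions. The mixed regions were chosen for peaks in controls of both kinds of cell, and none of this was tested.

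Ethanol-specific regions, like the other classes of region, were held more often after Baf53a than after Brg1 deletion, in lists of unequal length. A peak in both tamoxifen libraries was found for 98 regions (36.03%) in the Baf53afl/- line and for 47 (17.3%) in the Brg1fl/fl line. Both Baf53afl/- and neither Brg1fl/fl tamoxifen library held 31 regions (11.4%), and the reverse was true of 3 (1.10%). Among the regions of 2 ethanol and 2 DMSO libraries, 14.1% held a peak in both Baf53afl/- and 5.99% in both Brg1fl/fl tamoxifen libraries, and the patterns of 1 line alone held 6.81% and 1.71%. Among the regions of all 9 controls these shares were 89.6% and 70.3%, and 4.80% and 0.231%. The Brg1fl/fl tamoxifen lists held 84763 and 46431 peaks and the Baf53afl/- ones 88729 and 86960. The difference between the lines was not tested.

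Set-specific regions were near in width to other regions seen in as many lists. Their median width was 345.5 bp for ethanol-specific and 395 bp for DMSO-specific regions, against 326 and 359 bp for the regions of 2 ethanol and 2 DMSO, and of 2 ethanol and 3 DMSO libraries, and 706 bp for regions in all 9. The nearest region held by all 9 libraries was a median of 27.1 kb from ethanol-specific and 16.2 kb from DMSO-specific regions, against 17.3 and 16.4 kb for these mixed regions. It lay within 5 kb of 45 (16.5%) of the ethanol-specific and 46 (15.2%) of the DMSO-specific regions, and of 19.5% and 19.7% of the mixed ones. Merged regions grow wider as more lists hold a peak, so the 706 bp of regions in all 9 is not a like comparison.

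Most set-specific regions lay far from others of their class, with a few close groups. The gaps were not measured for other classes of region, so whether this differs from regions in general is not known. Another region of the same class lay within 100 kb of 19 ethanol-specific and 26 DMSO-specific regions, and within 10 kb of 13 and 14. A region of the other class lay within 100 kb of 10 and 10, and within 10 kb of 2 and 2. The median gap was 2.13 and 2.24 Mb to the same class, and 2.93 and 3.63 Mb to the other. The 1 Mb bin with the most ethanol-specific regions was chr18:7000001-8000000, with 4 of its 73 regions, among them regions 7 and 45 at chr18:7320263-7320527 and chr18:7321310-7321550. The bin with the most DMSO-specific regions was chr17:32000001-33000000, with 4 of 210, among them region 4. Ethanol-specific regions fell in 234 of 2414 bins, 5 of which held 3 or more, and DMSO-specific regions in 267, also with 5 that held 3 or more.

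The frequency of set-specific regions varied from chromosome to chromosome. Per 10000 regions, ethanol-specific regions ran from 3.66 on chromosome 15 to 16.8 on chromosomes 13 and 1, and DMSO-specific regions from 4.32 on chromosome 18 to 16.6 on chromosome 16. Chromosome 1 held 35 ethanol-specific and 33 DMSO-specific regions, the most of any chromosome in both classes (12.9% and 10.9% of the class, against 7.51% of all regions). On chromosome 13 there were 22 ethanol-specific and 11 DMSO-specific regions, and on chromosome 17 there were 6 and 17. These counts were not tested.

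**Figure D5:**
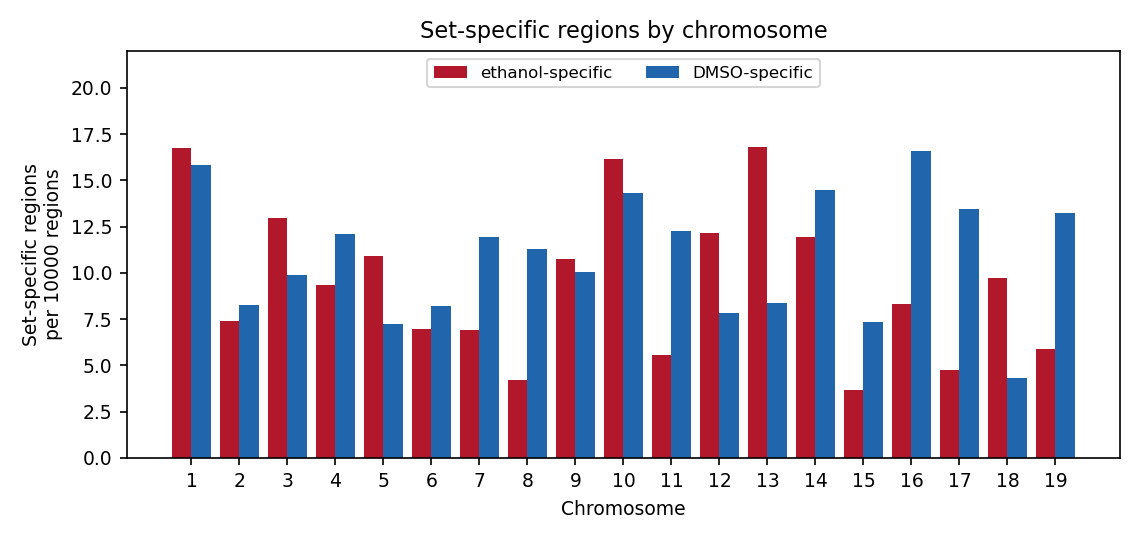
Ethanol-specific (red) and DMSO-specific (blue) regions per 10000 regions (y axis) on chromosomes 1 to 19 (x axis). Chromosomes 1 and 10 were high in both classes (16.8 and 15.8, and 16.2 and 14.3), and chromosome 17 was higher in the DMSO-specific class (13.4 against 4.74).

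Peak density over whole megabases was not called as different between the sets. Numbers of peaks in 1 Mb bins were scaled to list totals and fitted with limma, with adjustment over 2245 bins. Of these 0 (0%) passed an adjusted p of 0.05, while 261 (11.6%) were under 0.05 before adjustment. The number expected by chance before adjustment was 112.25, and the excess over it was not tested. The fit called 19 bins without DMSO 24 h replicate 2, 10 without DMSO 1 h replicate 2 and 14 without DMSO 1 h replicate 3. It called 1 without Brg1fl/fl ethanol replicate 2, and 0 when each of the others was left out. With replicate 1 libraries alone it called 131, and with replicates 2 and 3 alone 0. With a block for the name prefix it also called 0. The bin nearest to a call among those with most set-specific regions was chr1:155000001-156000000, which held 3 ethanol-specific regions. It had 81, 70, 89 and 72 peaks in the ethanol libraries and 60, 75, 82, 30 and 84 in the DMSO libraries, a log2 difference of 0.39 relative to list totals (SE 0.091, limma adjusted p = 0.0556). It passed without DMSO 1 h replicate 3 (0.41, limma adjusted p = 0.0303) and with a replicate block (adjusted p = 0.0314). It also passed with quantile normalization (0.0114), equal numbers of peaks (0.0338) or a pseudocount of 2 (0.0403). In the other settings run for this bin it did not pass (limma adjusted p from 0.0505 to 0.746). Among these were the prefix block (0.0769) and all 18 libraries (0.0740). In chr3:145000001-146000000, with 3 ethanol-specific regions, the log2 difference was 0.32 (SE 0.096, limma adjusted p = 0.103), and in chr7:38000001-39000000, with 3 DMSO-specific regions, it was -0.33 (SE 0.092, limma adjusted p = 0.0898). The bin on chromosome 3 passed with quantile normalization (0.36, limma adjusted p = 0.0321) and with equal numbers of peaks (0.44, adjusted p = 0.0138). Its other settings did not pass (limma adjusted p from 0.067 to 0.821). The bin on chromosome 7 passed without DMSO 24 h replicate 2 (-0.39, limma adjusted p = 0.0427) and with replicate 1 libraries alone (-0.39, adjusted p = 0.0483). Its other settings did not pass (limma adjusted p from 0.0667 to 0.819, the highest with replicates 2 and 3 alone). These bins were chosen for their set-specific regions, so the sign is a description.

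In the treated libraries limma called 79 of the 2245 bins (3.52%), 38 with relatively more peaks with tamoxifen and 41 with fewer. Among the 10 bins with most set-specific regions, chr4:146000001-147000000 was called there (log2 difference 0.61, SE 0.12, limma adjusted p = 0.0069). It held 3 ethanol-specific regions, region 3 among them, and 1 DMSO-specific region. Its tamoxifen lists had 104 and 58 peaks in the Brg1fl/fl and 80 and 79 in the Baf53afl/- line, against 69, 47, 59, 45 and 61 with ICRF-193. In the controls its difference was 0.082 (SE 0.12, limma adjusted p = 0.861), with 58 to 76 peaks in the ethanol and 58 to 77 in the DMSO libraries. The difference between these fits was not tested.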

How the data were processed

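ATAC-seq peak lists of 18 mouse ES cell libraries were used, 1 per sample, as deposited. The submitters' processing notes name build mm9 and list Bowtie 0.12.9, MACS2 and edgeR 3.12.1 without saying what each did. How reads were shifted or filtered, and the settings for calling peaks, are not given in the sources used. The deposited score of each peak has no stated unit and served only as a percentile within its own list. The lists hold no read counts, so depth is unknown and no counting interval is given.

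Peaks overlapping by 1 bp or more were merged, on chromosomes 1 to 19, and positions are printed counted from 1. The 10 strongest regions of each set by mean percentile and the 5 bins with most regions per set are named. For each bin, log2((peaks + 0.5) / list total × 1000) was fitted with limma 3.58.1 (variance trend, Benjamini-Hochberg) where the mean was 10 or more peaks. Shares and list measures were compared by exact permutation over libraries. Python 3.11.15, scipy 1.17.1, R 4.3.3 and bedtools 2.31.1 were used, and both steps were tested on simulated data. Members and rules were chosen with earlier results of these data known. The gene and marker lists prepared for this work were not used, because the supplied annotation and promoter sequences follow another build than mm9; no sequence is printed for that reason. Alternatives were equal list lengths, stricter scores, overlap, bin and fit settings, and leaving out each library.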

Additional observations from a re-analysis of the deposited data

Results flagged for a closer look

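Sex chromosomes were outside the comparison, and each ethanol list held at least 41 peaks on chromosome Y where each DMSO list held 0. Brg1fl/fl tamoxifen replicate 2 lay far from the other 3 tamoxifen libraries in its log2 number of peaks (15.5, others 16.3 to 16.4) and in the length under peaks (11.3 Mb, others at least 23.5 Mb). Without it the share of ethanol-specific regions was 39.3 points higher with tamoxifen than with ICRF-193, against 31.5 with it. DMSO 1 h replicate 1 had 7.11% of its peaks on chromosome 5, where the other 4 DMSO libraries had 6.74 to 6.82%. Chance alone marks about 1 in 20 of such groups, and 62 groups were looked at.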

How the results depend on the processing

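In the treated libraries both directions held in every alternative run, and the groups could not pass 0.05 where too few libraries remained. For ethanol-specific regions the difference was 19.9 points with Brg1fl/fl and 43.2 with Baf53afl/- tamoxifen libraries alone (exact permutation p = 0.0952 each, the smallest possible), and 38.4 and 23.7 within the first and second prefix (exact p of 0.333 and 0.2, the smallest possible). For DMSO-specific regions these were -48.2, -41.6, -54.6 and -39.5, with the same p. With regions found at equal numbers of peaks the ethanol-specific difference was 29.1 (exact permutation p = 0.0635), where the libraries overlapped; the cause was not tested. Single libraries left out gave 25 to 39.3 and -52.1 to -41.3.

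Region counts kept within 1.5 times with equal numbers of peaks (354 ethanol-specific and 293 DMSO-specific), peaks above the median score (189 and 223) and 100 bp overlap (268 and 270). The shares of all regions changed more, from 0.0978% and 0.109% of 278123 in the main run. They were 0.304% and 0.252% of 116278 with equal numbers, and 0.190% and 0.224% of 99654 above the median score. With 100 bp overlap they were 0.0846% and 0.0852% of 316858. Left-out libraries gave 294 to 673 and 375 to 1291. Fewer libraries asked for gave, by construction, more: 985 and 3932 with DMSO 24 h alone, 603 and 666 with DMSO 1 h alone, 1357 and 913 with Brg1fl/fl ethanol alone, 1950 and 995 with Baf53afl/- ethanol alone, 6483 and 6027, and 1789 and 2326, within the prefixes, 1362 with any 3 ethanol libraries and 1705 with any 4 DMSO libraries. All 20 named regions kept their class in each of these settings other than the last pair, where this was not looked up. Where libraries were only left out, the rule could hardly return another result, so this is no check of them. The named regions were chosen for high percentiles, so equal numbers of peaks and stricter scores could hardly remove them either.

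The shares differed by 24.6 and -32.0 points with treated lists of equal length. The 1 Mb bins called (0 higher and 0 lower by limma) came to 8 and 5 with a replicate block. With quantile normalization they were 23 and 14, and with equal numbers of peaks 12 and 12. A pseudocount of 2 gave 9 and 7, and 500 kb bins gave 4 and 5. With all 18 libraries they were 0 and 1, and with single libraries left out 0 to 12 and 0 to 7. The first prefix gave 104 and 27, and the second prefix and a prefix block each gave 0 and 0. The cause was not tested. Of 2 DMSO groups and 2 ethanol groups, same-numbered libraries deviated in opposite directions in some pairs (correlations of -0.487 to 0.399), so that the numbers were not taken to pair libraries, although replicate 1 of each group shares a name prefix. The bin chr13:66000001 (-0.53) passed with equal numbers of peaks (-0.58, limma adjusted p = 0.0338) and in none of the other settings run for it.

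List measures that no test called changed sign in some settings. The log2 number of peaks went from -0.073 to 0.011 with a replicate block, which leaves out DMSO 1 h replicate 3 (exact p = 1), and to between -0.28 and 0.011 with single libraries left out. Median width went from 2.25 to -2.90 bp, and the share of 1 kb peaks from 0.104 to -0.072 points, with equal numbers of peaks, and they ran from -2 to 5.75 bp and from -0.146 to 0.339 points with single libraries left out. Mb under peaks ran from -5.79 to -0.416. The bin chr1:140000001 (-0.24) turned to 0.068 in the first prefix. The bin chr19:10000001 (0.019) turned to -0.022 with a replicate block, -0.065 with equal numbers of peaks, -0.26 in the first prefix, and ran from -0.039 to 0.099 with single libraries left out. None of these was called.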

Other observations

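Chromosome 2 held 8.03 to 8.19% of the peaks of each ethanol list and 8.21 to 8.31% of each DMSO list, which was the only one of the 19 chromosomes whose sets did not overlap in this share. Chromosome 13 had the largest difference in means, 4.77% against 4.48%, and its libraries overlapped (4.55 to 4.88% and 4.35 to 4.62%). Neither was tested. Ethanol-specific region 187, chr2:25471866-25472407, held a peak in all 5 ICRF-193 libraries although no DMSO library had one, at percentiles of 8.64 to 35.8. It was named after its values were seen.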
